A study of Mus musculus with 12 samples.

Results

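Sez6, Sez6l, Sez6l2, Csmd1, Csmd2 and Csmd3 encode neuronal surface proteins built from the same pair of extracellular modules, the sushi domain, which is the repeat unit of complement regulators, and the CUB domain. The 6 genes were taken by name, and all 6 had a probe set among the 25428 in the table. The family was selected on the measured rise of Sez6 in the genotype contrast described here, so the differences between genotypes are given for these 6 genes as a description. Intervals show the error of a difference and are not used as tests, and the 1 count of calls given for the 6 supports nothing. The levels come from the embryonic mouse striatum at day 18.5 on the C57BL/6J background, with 6 wild-type (WT) samples and 6 samples that carried Nestin-Cre and were labelled Foxp1-/- (cKO). Nestin drives Cre recombinase in neural progenitors, so the deletion is not limited to the striatum. Whether WT embryos also carried Cre, and which Foxp1 exons were lost, is not given in the sources used here. Striata of both hemispheres were taken, and the titles call the samples of a group biological replicates. Litter, and whether a sample pooled embryos, are not stated.

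The Sez6 proteins are type I membrane proteins with a large extracellular part that is shed by the beta-secretase BACE1, most clearly so for Sez6 and Sez6l. They are known in the forebrain for roles in dendrite branching and excitatory synapses, and Sez6 for control of the trafficking of kainate receptor subunits. The Csmd proteins are far larger, with long arrays of CUB and sushi modules. Csmd1 is known as an inhibitor of complement, a cascade that tags synapses for removal by microglia, and Csmd2 and Csmd3 for effects on dendrites and spines. Foxp1 is a forkhead transcription factor abundant in the projection neurons of the striatum.

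All values are log2 expression from RMA, a method that corrects the background, equalises the arrays and summarises the probes of a gene. A probe set's level depends on its probes, so levels are compared between arrays and never between genes. The number of arrays limits the precision. The median probe set of an array stood at 5.71, and values ran from 5.21 to 13.99. Correlations between arrays lay between 0.992 and 0.998. Foxp1, the targeted gene, had a WT mean of 11.14 ± 0.17 (SD, n = 6) and a cKO mean of 10.23 ± 0.08 (SD, n = 6), with no overlap. Of the striatal projection neuron markers 10 of 12 were measured, and none of these stayed below the median probe set on every array. Over all probe sets 185 passed a limma adjusted p of 0.05, which is 0.728%. Of these 76, or 0.299% of all probe sets, were higher in cKO, and 109, or 0.429%, were lower. Before adjustment 2729 probe sets, or 10.7%, had a p under 0.05. Counts over gene lists given further on stand beside these shares. The labels name no batch. Tissue was measured in bulk, so fewer cells of a type and less RNA per cell cannot be told apart.

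The differences of the 6 genes between genotypes ran from -0.07 log2 units for Csmd2 to 0.45 for Sez6 (the plot of the 6 genes by array). In the fit over all probe sets 1 of the 6, Sez6, was called, beside 0.728% of all probe sets. Its rise is how the family was chosen, so nothing is read from this count. Sez6 was also the one member whose groups did not overlap, which held for 1.38% of all probe sets in either direction and 0.562% in the upward direction. The median change over the 6 genes was 0.086 log2 units, against -0.00077 over all probe sets. Changes were positive in 4 of the 6 and in 48.8% of all probe sets. The median and this count both include Sez6, on which the family was chosen, so nothing is read from them either.

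**Figure D1:**
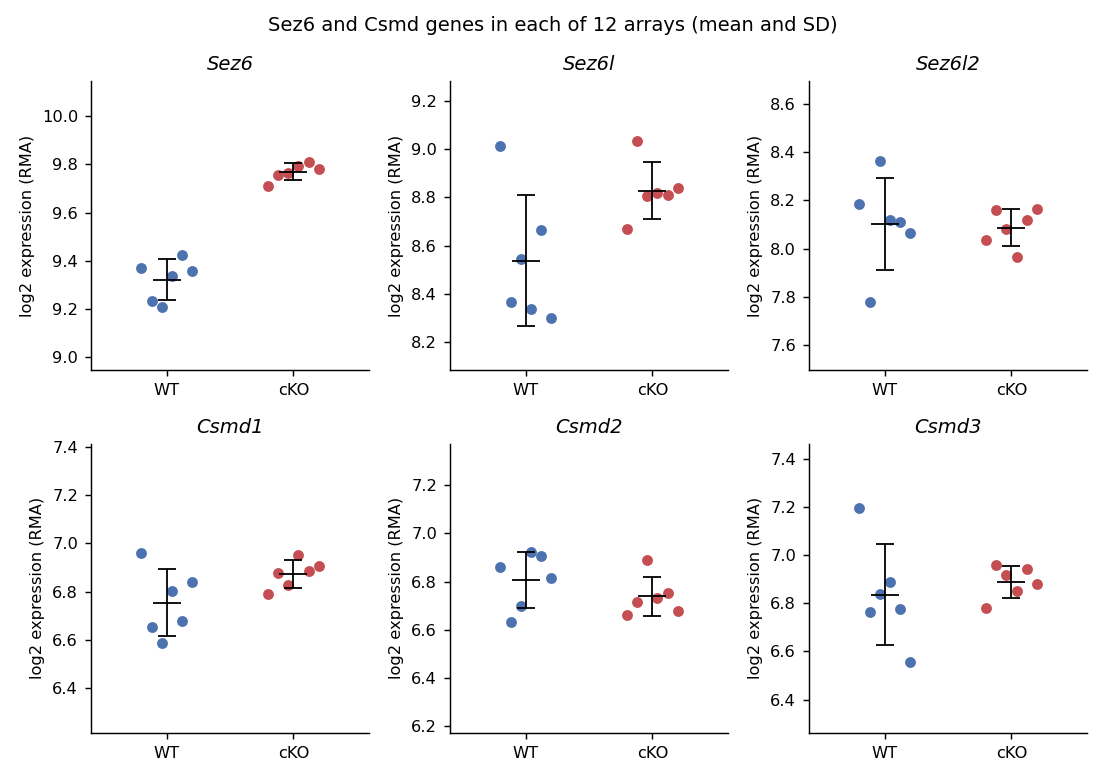
Log2 expression (RMA) of the 6 genes in each array, with WT in blue and cKO in red; within a group, points run from replicate 1 on the left to replicate 6, and bars give the mean and SD. Every panel spans the same number of log2 units. All 6 cKO values of Sez6 lie above the WT range, and the groups overlap for the other 5 genes.

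Sez6, the founding member, was first found as a gene induced by a convulsant in cortical neurons. In WT its log2 level ran from 9.21 to 9.42 with a median of 9.35. In cKO it ran from 9.71 to 9.81 with a median of 9.77. Every cKO array was thus above every WT array, and the gap between the highest WT and the lowest cKO array was 0.29. The means were 9.32 ± 0.08 (SD, n = 6) and 9.77 ± 0.03 (SD, n = 6). The difference was 0.45 ± 0.04 log2 units (SE; 95% interval 0.37 to 0.53), or 1.36-fold. Among the probe sets called higher in cKO this change ranked 13.

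Over 21 alternative fits the Sez6 difference lay between 0.42 and 0.47. Of these fits, leaving out dim probe sets, the trend and robust settings and the replicate block cannot move the difference itself, only its error. The lowest value came with the level of 7 cortical neuron markers as a covariate, since cortex borders the dissected tissue. Across arrays the mean level of these markers lay between 6.05 and 6.41 (WT) or 6.06 and 6.75 (cKO). Of the 7, 1 stayed below the median probe set on every array. With that covariate Sez6 differed by 0.42 ± 0.04 (SE; 95% interval 0.34 to 0.51). One array, cKO replicate 1, had a Ttr level of 9.96, against 5.39 to 5.57 on the other arrays. Ttr, which encodes transthyretin, is abundant in choroid plexus. Of the other 4 choroid plexus and ependyma markers, Folr1 (5.70), Clic6 (5.58) and Foxj1 (5.71) were within the range of the other arrays there. Kcnj13 read 5.55 against 5.40 to 5.47, so Ttr carried nearly all of the difference in this list. Without this array the Sez6 difference was 0.46 ± 0.04 (SE).

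Sez6l, the paralog that is also shed by BACE1, leaned the same way with far more spread. Its WT levels ran from 8.30 to 9.01 with a median of 8.46. Its cKO levels ran from 8.67 to 9.04 with a median of 8.81. All 6 cKO arrays were above the WT median, but 1 WT array, replicate 1, was above all cKO arrays except replicate 2. The difference was 0.29 ± 0.11 (SE; 95% interval 0.05 to 0.54). Without WT replicate 1 it was 0.39 ± 0.08 (SE; 95% interval 0.22 to 0.55). Without WT replicates 3 and 6, the difference was 0.23 (95% interval -0.05 to 0.52). With the cortical covariate it was 0.29 (95% interval -0.005 to 0.59).

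Sez6l is the only one of the 6 genes in the RefSeq promoter table, so its promoter is shown, because Foxp1 is a forkhead factor and Sez6l leaned upward in cKO. The 300 bases lie at chr5:112577149-112577448 on the minus strand of GRCm38.p6, around the RefSeq start, and are given 5′ to 3′. Capitals mark GGGCGG or its reverse complement, the core of a GC box.

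Sez6l promoter: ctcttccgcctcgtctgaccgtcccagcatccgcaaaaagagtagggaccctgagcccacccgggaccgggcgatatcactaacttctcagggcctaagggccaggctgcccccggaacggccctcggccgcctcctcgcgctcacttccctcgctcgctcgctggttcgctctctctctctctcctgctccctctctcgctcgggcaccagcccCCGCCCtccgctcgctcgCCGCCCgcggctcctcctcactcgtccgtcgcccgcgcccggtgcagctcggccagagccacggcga

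This window was 70.7% G or C and held 35 CpG pairs, and 6.23% of the promoters in the table held more. It held 2 GC box cores, which 35.7% of the 32851 promoters of this length hold at least once. The forkhead core TGTTTA, searched on both strands, had 0 matches, against 13.4% of all promoters with at least 1. The absence says only that these letters are not in this window.

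Sez6l2, the third Sez6 protein, showed no difference larger than its spread. WT arrays ran from 7.78 to 8.36 with a median of 8.11, and cKO arrays from 7.97 to 8.16 with a median of 8.10. The cKO range lay wholly within the WT range. The difference was -0.02 ± 0.08 (SE; 95% interval -0.19 to 0.16), which leaves room for a change of up to that size in either direction. Its sign was not stable, with 6 of 21 alternatives positive and values from -0.08 to 0.04.

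Among the Csmd genes, Csmd1, the complement inhibitor, had WT values between 6.59 and 6.96 (median 6.74). Its cKO values lay between 6.79 and 6.95 (median 6.88). All 6 cKO arrays were above the WT median and none was above the highest WT array. The difference was 0.12 ± 0.06 (SE; 95% interval -0.006 to 0.25). Over the 21 alternatives it ran from 0.09 ± 0.05 (SE; 95% interval -0.03 to 0.20) without WT replicate 3 to 0.16 ± 0.05 (SE) without WT replicate 1.

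Csmd2 leaned the other way. Its WT values lay between 6.63 and 6.92 (median 6.84) and its cKO values between 6.66 and 6.89 (median 6.72), and 1 of 6 cKO arrays was above the WT median. The difference was -0.07 ± 0.05 (SE; 95% interval -0.19 to 0.05). It was -0.10 without WT replicate 2 and -0.04 without WT replicate 4, the ends of its range over the 21 alternatives. For Csmd3 the arrays gave a WT range from 6.55 to 7.20 (median 6.81) and a cKO range from 6.78 to 6.96 (median 6.90), again with the cKO range inside the WT range. Its difference was 0.05 ± 0.08 (SE; 95% interval -0.13 to 0.23), and 0.12 ± 0.06 (SE) without WT replicate 1. It turned negative, to -0.02, without WT replicates 3 and 6.

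**Figure D2:**
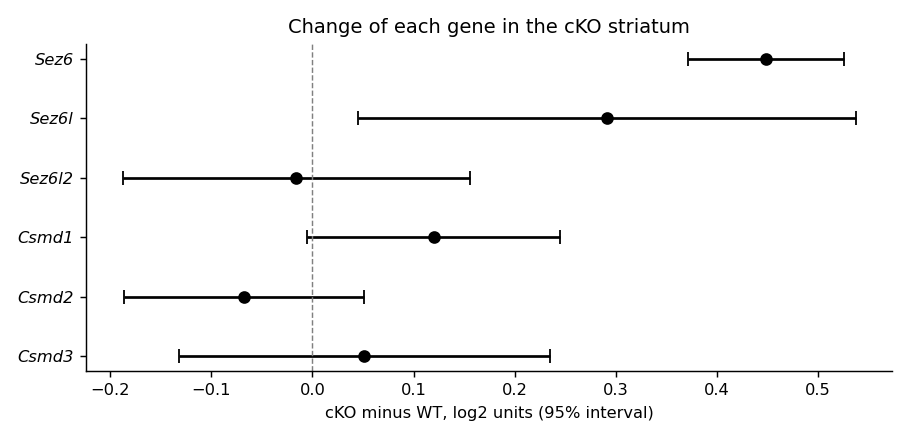
Difference in log2 expression, cKO minus WT, for each of the 6 genes, with 95% intervals from the fit over all probe sets; the dashed line marks no difference. Sez6 has the narrowest interval (0.37 to 0.53) and Sez6l the widest (0.05 to 0.54); the intervals show error and are not tests, since the family was chosen on this contrast.

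The spread among arrays was a measure the choice of the family did not use. For all 6 genes the SD was smaller in cKO than in WT. The ratio of the WT to the cKO SD ran from 1.44 for Csmd2 to 3.20 for Csmd3, with 2.45 for Sez6 and 2.31 for Sez6l. A smaller SD in cKO was common, being found for 59.7% of all probe sets and 67.6% of those above the median level, and nothing particular to the family is read from it. The width in WT came from different arrays for different genes. WT replicate 1 was the highest WT array for Sez6l, Csmd1 and Csmd3. WT replicate 3 was the highest for Sez6l2 and the lowest for Sez6 and Csmd1. WT replicate 2 was the lowest for Sez6l2 and Csmd2.

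Whether the genes varied together within a genotype was examined over the 12 arrays after each gene's genotype mean was subtracted, which removes the contrast that chose the family. All 15 pairwise Pearson correlations were positive, with a median of 0.355. None of the 15 passed after adjustment (permutation test within genotype, two-sided, Benjamini-Hochberg over 15). By Spearman, rho was -0.06 for Sez6 with Sez6l2 and 0.0 for Sez6l with Csmd2. With 1 array left out, r fell as low as -0.60 for Sez6 with Sez6l2 and -0.47 for Sez6l2 with Csmd2. The share of positive r among other pairs of probe sets was not computed, so nothing particular to the family is read from the sign. At an unadjusted p under 0.05 there were 2 pairs by Pearson and 2 others by Spearman.

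Sez6l and Csmd3 had the highest correlation, with Pearson's r = 0.81 (permutation p = 0.0137, adjusted p = 0.206) and Spearman's rho = 0.57 (permutation p = 0.0791, adjusted p = 0.292). It was 0.82 within WT and 0.79 within cKO, where exact tests over 6 arrays gave p = 0.0583 and p = 0.0806. Without WT replicate 1 and cKO replicate 2, the arrays farthest from the median of Sez6l, r was 0.42. Leaving out these arrays also narrows the range of Sez6l, so it cannot show what the relation rests on. Sez6 and Csmd2 followed with r = 0.72 (permutation p = 0.0287, adjusted p = 0.215) and rho = 0.57 (permutation p = 0.0781, adjusted p = 0.292). This pair had r = 0.87 within WT (exact p = 0.0389) and 0.28 within cKO (exact p = 0.565). Without WT replicates 2 and 3 it had r = 0.23. Sez6 and Csmd2 thus leaned together within WT while their genotype means differed in opposite directions. With the cortical marker level removed as well, both pairs passed, at r = 0.89 for Sez6 and Csmd2 (permutation adjusted p = 0.0296) and r = 0.82 for Sez6l and Csmd3 (permutation adjusted p = 0.0490). Sez6 and Csmd1 had r = 0.61 (permutation adjusted p = 0.628) and rho = 0.71 (permutation p = 0.0205, adjusted p = 0.215). Their r was 0.58 within WT (exact p = 0.240) and 0.80 within cKO (exact p = 0.0542). It fell to 0.02 without WT replicates 2 and 3. Single arrays moved these calls: without WT replicate 5, Sez6 with Csmd1 (r = 0.93) and Sez6l with Csmd3 (r = 0.86) passed, and without WT replicate 4, Sez6l with Csmd3 (r = 0.90) passed.

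**Figure D3:**
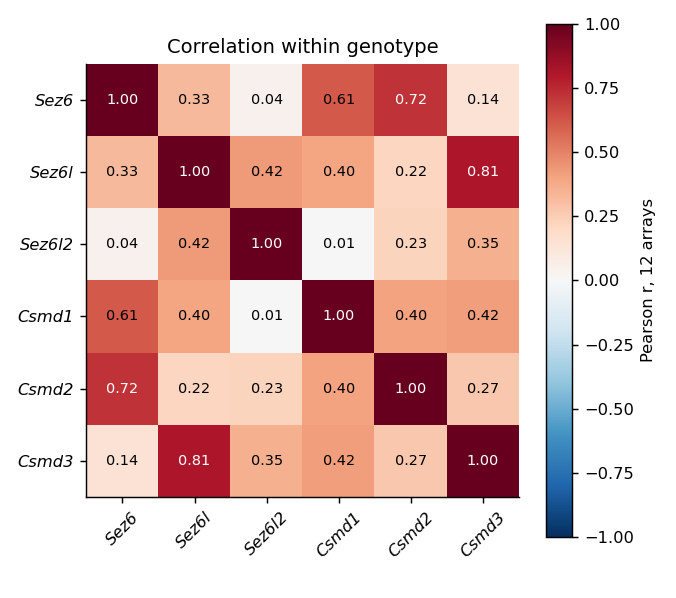
Pearson correlation between the 6 genes over 12 arrays after subtraction of each gene's genotype mean, with r printed in each cell and coloured from -1 (blue) to 1 (red). The highest values are 0.81 for Sez6l with Csmd3 and 0.72 for Sez6 with Csmd2; none of the 15 pairs passed after adjustment.

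Within genotype, the members were also set against the level of Foxp1 on all 12 arrays. Genotype means were subtracted, and the relation was added after the data were seen. The SD of Foxp1 was 0.17 in WT and 0.08 in cKO, so the WT arrays weigh more in r. Sez6l had r = -0.70 with Foxp1 (permutation p = 0.0465, adjusted over 6 genes p = 0.279) and rho = -0.71 (permutation p = 0.0196, adjusted p = 0.118). It was -0.74 within WT, -0.48 within cKO, and -0.74 without WT replicates 5 and 6. Sez6l2 had r = -0.30 (permutation p = 0.510, adjusted p = 0.680), with -0.20 within WT (exact p = 0.757) and -0.89 within cKO (exact p = 0.0167). For Sez6 r was -0.20 (permutation p = 0.655, adjusted p = 0.680). None of the 6 relations over the 12 arrays passed after adjustment, at an unadjusted p under 0.05 there was 1, and within-genotype variation of Sez6 with Foxp1 was not detectable with these arrays.

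The genes whose variation within genotype was most like that of Sez6 were looked for among 11117 named probe sets above the median level. The highest Pearson r over the 12 arrays were those of Noc2l (0.96), a nucleolar factor, Fam216a (0.89), Wdr7 (0.89), the transcription elongation factor gene Supt6 (0.87) and Bicd2 (0.87), a dynein adaptor. The lowest were those of Pomp (-0.93), a proteasome assembly factor, the translation factor gene Eif4b (-0.92), Fdx2 (-0.86), Septin6 (-0.85) and Frat1 (-0.85). By Spearman 0 of the first 5 and 1 of the last 5, Pomp, were again among the 5 most extreme, so the order depends on the measure. These are the ends of 11117 values of r over 12 arrays, where high values also arise by chance. No test was made of them. None of the 10 passed the threshold between genotypes in limma, where their adjusted p ran from 0.161 (Bicd2) to 0.984 (Fam216a). Their likeness to Sez6 is over the spread among arrays, with the genotype difference removed. In r with Sez6, Csmd2 lay above 99.4% of all probe sets above the median level, Csmd1 above 97.8%, Sez6l above 83.1%, Csmd3 above 65.6% and Sez6l2 above 53.9%. Without WT replicates 2 and 3, the arrays farthest from the median of Sez6, r was 0.23 for Csmd2 and 0.02 for Csmd1. Within cKO alone, r was 0.28 for Csmd2 and 0.80 for Csmd1. Leaving out the farthest arrays also narrows the range of Sez6, so it cannot show what these relations rest on.

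Kainate receptors are the ionotropic glutamate receptors whose subunits Sez6 is known to traffic, and Neto proteins are their auxiliary subunits. Of 7 genes measured, 2 fell in cKO and 0 rose, beside 0.429% and 0.299% of all probe sets. Like the other lists, this one was chosen with earlier results of these data known, so the shares are no test of it. Grik2, which encodes the subunit GluK2, had WT values between 10.72 and 10.996 (median 10.78) and cKO values between 10.13 and 10.28 (median 10.22), so all 6 cKO arrays were below every WT array. It fell by 0.59 ± 0.04 log2 units (SE; limma adjusted p = 0.000170), or 1.51-fold. Neto1, itself a CUB-domain protein, had WT values between 10.55 and 11.03 (median 10.82) and cKO values between 9.65 and 10.04 (median 9.93), also without overlap. It fell by 0.91 ± 0.09 (SE; limma adjusted p = 0.000770), or 1.88-fold. Both passed in all 21 alternatives. For the other 5, Grik1 differed by 0.08, Grik3 by -0.09, Grik4 by -0.01, Grik5 by -0.09 and Neto2 by 0.03, and none passed. The list median was -0.088, against -0.00077 over all probe sets. On the same 12 arrays Sez6 was higher, while Grik2 and Neto1 fell.

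**Figure D4:**
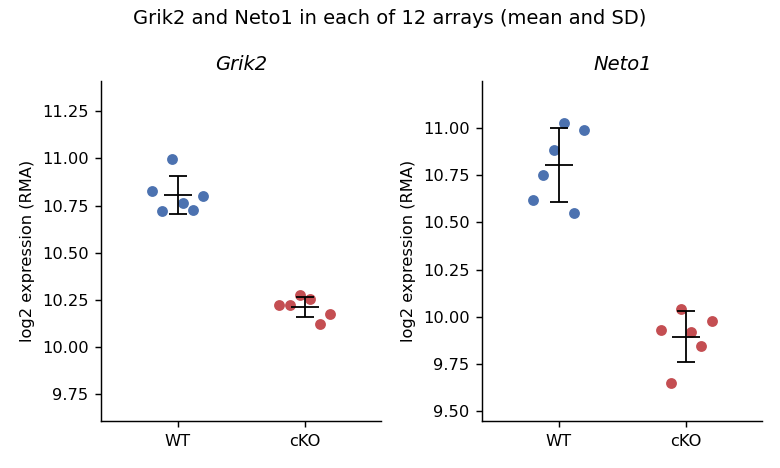
Log2 expression (RMA) of Grik2 and Neto1 in each array, with WT in blue and cKO in red, points in order of replicate number and bars for the mean and SD. All 6 cKO arrays lie below every WT array for both genes, from 10.13 to 10.28 for Grik2 and from 9.65 to 10.04 for Neto1.

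Other genes with the modules of this family were taken as 2 lists. Of 21 measured genes with sushi domains 1 fell and 0 rose, where 0.429% of all probe sets fell and 0.299% rose. The one was Vcan, the matrix proteoglycan versican, which fell by 0.24 ± 0.03 (SE; limma adjusted p = 0.00828) from 10.19 ± 0.08 to 9.95 ± 0.04 (SD, n = 6 each). With replicate number as a block it missed the threshold (limma adjusted p = 0.0887, with 0.00404 to 0.0887 over all alternatives). Of 25 measured genes with CUB domains 1 rose and 1 fell, beside the same 0.299% and 0.429% of all probe sets. Neto1 fell, and Adgrg6, an adhesion receptor known from myelinating Schwann cells, rose by 0.19 ± 0.03 (SE; limma adjusted p = 0.0119). Adgrg6 averaged 5.74 in WT, close to the median probe set, and missed the threshold with replicate number as a block (limma adjusted p = 0.0653) and without WT replicates 3 and 6 (limma adjusted p = 0.0730, with 0.0034 to 0.0730 over all alternatives). Before adjustment, a limma p under 0.05 was reached by 1 sushi gene upward and 2 downward, and by 5 CUB genes upward and 5 downward, beside 10.7% of all probe sets in either direction. List medians were 0.0069 and -0.0025.

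The complement cascade itself was at the lower end of the array. Of 18 measured complement components 13, and of 18 measured receptors and regulators 12, stayed below the median probe set on every array, where little change can be seen. In limma 0 of the components and 0 of the receptors and regulators passed. Before adjustment, 1 component upward, 1 component downward and 3 receptors or regulators downward had a limma p under 0.05, of 18 each, where 10.7% of all probe sets did. C1qb, a subunit of the initiating C1q complex made by microglia, averaged 6.24 ± 0.11 in WT and 6.35 ± 0.11 in cKO (SD, n = 6 each). By the rule of the smallest p, C8a differed by 0.04 ± 0.01 (limma adjusted p = 0.235) and Itgam, a subunit of complement receptor 3, by -0.04 ± 0.01 (limma adjusted p = 0.213). The microglia marker list averaged 5.84 to 5.90 in WT and 5.83 to 5.89 in cKO. List medians were -0.0087 and -0.0052.

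Processing enzymes of the Sez6 proteins showed no call. Of 7 measured beta- and gamma-secretase genes 0 passed in limma, and 0 had an unadjusted p under 0.05. Bace1 averaged 6.95 ± 0.12 in WT and 7.01 ± 0.10 in cKO (SD, n = 6 each), and Psen2 differed by 0.03 ± 0.02 (limma adjusted p = 0.613). Of 10 other BACE1 substrates 0 passed in limma, and before adjustment 1 upward and 1 downward had a p under 0.05, beside 10.7% of all probe sets. L1cam, an axonal adhesion molecule, differed by -0.19 ± 0.05 (limma adjusted p = 0.166). The medians were -0.024 and -0.015.

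Of 16 measured genes of the excitatory postsynapse 1 fell and 0 rose, beside 0.429% and 0.299% of all probe sets. Dlg2, the scaffold PSD-93, fell by 0.30 ± 0.04 (SE; limma adjusted p = 0.00241), from 9.65 ± 0.08 to 9.35 ± 0.04 (SD, n = 6 each), and passed in all 21 alternatives. Dlg4, the scaffold PSD-95, differed by 0.01 ± 0.04. Gria1, an AMPA receptor subunit named here after its values were seen, differed by 0.27 ± 0.06 (limma adjusted p = 0.0589) and passed in 6 of 21 alternatives. The list median was -0.011.

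**Figure D5:**
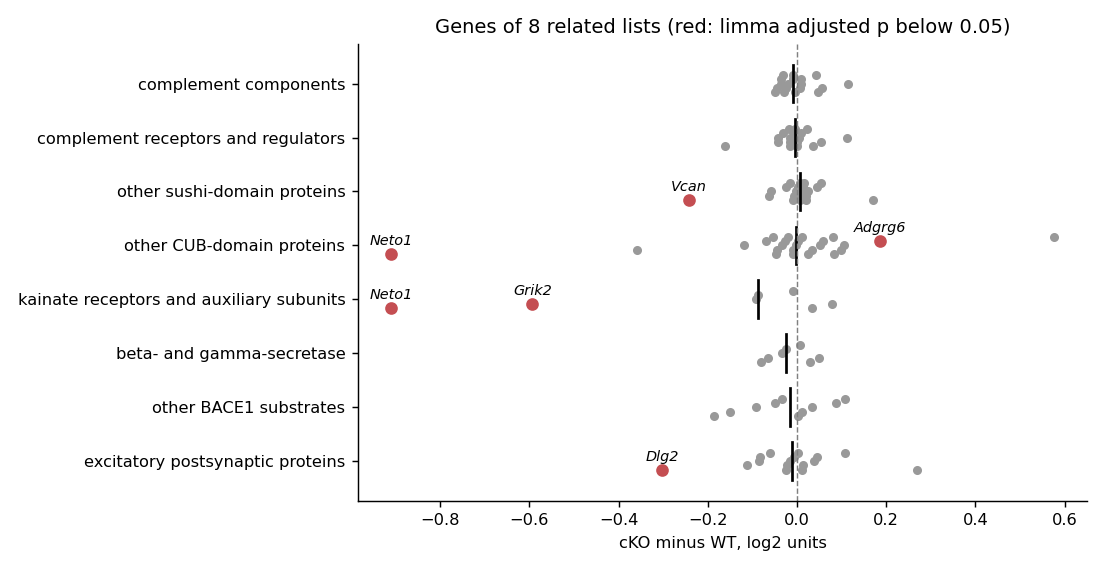
Difference in log2 expression, cKO minus WT, for each measured gene of 8 lists related to the family, with list medians as black bars and genes past a limma adjusted p of 0.05 in red. Vcan, Neto1, Grik2 and Dlg2 lie to the left and Adgrg6 to the right; Neto1 is on 2 lists.

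Markers of cell types in and around the striatum were measured on the same arrays. Of 10 striatal projection neuron markers 2 fell, where 0.429% of all probe sets fell. They were Foxp1 and Pde10a (-0.59 ± 0.09, limma adjusted p = 0.00869). Foxp1 is the targeted gene, so its fall was set by the design and is not read as a marker result. Pde10a missed the threshold with replicate number as a block (limma adjusted p = 0.0718, with 0.000594 to 0.0718 over all alternatives). The list means of single arrays, with Foxp1 included, were 8.92 to 9.21 (WT) and 8.75 to 8.94 (cKO). Before adjustment, 2 of the 10 had a limma p under 0.05 upward and 4 downward, Foxp1 among the latter. Of the uncalled markers, Penk differed by 0.38 (limma adjusted p = 0.0501), Gad1 by 0.16, Drd1 by 0.04 and Drd2 by 0.04. Tac1 differed by -0.55, Ppp1r1b by -0.48, Rgs9 by -0.15 and Bcl11b by -0.12. Maf, an interneuron factor, rose by 0.57 ± 0.09 (limma adjusted p = 0.0150), 1 of 6 measured on its list, beside 0.299% of all probe sets. It missed the threshold with replicate number as a block (limma adjusted p = 0.119, with 0.0014 to 0.119 over all alternatives) and with the cortical covariate. Its list means were 9.05 to 9.22 (WT) and 9.22 to 9.36 (cKO). On this list Erbb4 differed by 0.31 (limma adjusted p = 0.0603) and Sst by 0.14. Lhx6 differed by -0.02, Nkx2-1 by 0.01 and Npy by 0.01, so the list did not move as a whole. Aurkb, a mitotic kinase, rose by 0.22 ± 0.04 (limma adjusted p = 0.0303) and passed in 13 of 21 alternatives. It was 1 of 7 genes of dividing cells, where 0.299% of all probe sets rose. It missed without WT replicate 4 or 5, without cKO replicate 2, 3 or 5, without WT replicates 3 and 6, with the Y-linked covariate and with replicate number as a block, with an adjusted p of up to 0.146 over all alternatives. List means of dividing cells were 7.62 to 7.89 in WT and 7.70 to 7.98 in cKO, and those of radial glia and progenitors 9.39 to 9.61 and 9.55 to 9.71. Changes were positive in all 7 measured genes of the dividing-cell, radial glia and cortical lists. Their medians were 0.149, 0.0362 and 0.0655. In the other marker lists this count ran from 2 of 6 (microglia) to 5 of 6 (interneurons), beside 48.8% of all probe sets. Before adjustment, 3 dividing-cell and 2 interneuron genes had a limma p under 0.05 upward and 0 downward. The lists were chosen with earlier results known, so these counts are no test. In the marker lists other than those of projection neurons, interneurons and dividing cells, 0 genes passed in limma. Before adjustment, a p under 0.05 was reached upward by 3 radial glia, 2 cortical and 2 endothelial genes, downward by 1 microglial and 1 oligodendrocyte gene, and by 0 in the astrocyte, choroid plexus, meningeal and erythroid lists. Of all probe sets 10.7% reached it. Of these, Neurod6 differed by 0.51 ± 0.21 (limma adjusted p = 0.408) and Sox2 by 0.37 ± 0.09 (limma adjusted p = 0.111). Sox2 passed in 2 of 21 alternatives (smallest limma adjusted p = 0.0393). The part of these cell types in the Sez6 difference was not tested, other than by the cortical covariate given above.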

How the data were processed

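Striatal RNA of 12 samples was measured on 1 array each. The deposited values were RMA log2 expression, per the submitters' processing notes, which give no version. The array model and probe definition are not given in the sources used here. Sorted values differed between arrays by at most 0.00187, so a change common to all genes would not show. Symbols for 24674 of 25428 probe sets came from the platform annotation, updated by gene identifier through RefSeq (GRCm38.p6).

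Over all probe sets, a linear model of genotype without covariates was fitted in limma 3.58.1 under R 4.3.3 (lmFit, eBayes, two-sided), with Benjamini-Hochberg adjustment and a threshold of 0.05. Correlations used 100000 permutations of arrays within genotype, or all 720 orders within one, in NumPy 2.4.6. The fits and correlations were tested on simulated data. The 6 genes, 8 related lists and 12 marker lists (195 of 213 genes measured) were chosen with earlier results of these data known. The rule for names took the 6 genes, Foxp1, at most 3 called genes per list by size of change (without a call, the gene of smallest p), and the 5 genes at each end of r with Sez6. C1qb, Bace1, Dlg4, Gria1 and the uncalled kainate, projection neuron and interneuron genes were added after their values were seen. The 21 alternatives are described in the closing section.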

Additional observations from a re-analysis of the deposited data

Results flagged for a closer look

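In Dlg2, cKO replicate 4 read 9.432, above the other 5 cKO arrays at 9.308 to 9.354. Its gap to the next array was 0.634 of the range of the group, past the Dixon value of 0.625. This was 1 flag in 56 groups of arrays examined, over 28 genes, where chance gives about 1 in 20. None of the 6 Sez6 and Csmd genes was flagged in either genotype.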

How the results depend on the processing

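The alternatives were quantile normalization again, median centring, dim probe sets left out, the replicate number as a block, weights per array, eBayes with trend and robust settings, Y-linked genes (3 of those planned were used) or cortical markers as a covariate, each array left out, and WT replicates 3 and 6 left out. Same-numbered arrays did not deviate together, with r above 0.1 in 1 of 6 pairs, so the numbers were not taken as pairs. With the replicate block 64 probe sets were called in place of 185, Sez6 was called, and Vcan, Adgrg6, Pde10a, Maf and Aurkb missed the threshold. The total was 278 with dim probe sets left out, 101 with the cortical covariate, 61 at an adjusted p below 0.01, 30 with a 1.5-fold minimum, and 106 to 227 with 1 array left out. Maf also missed it with the cortical covariate. Of the 6 genes 1 to 2 were called with 1 array left out (2 without WT replicate 1), and 0 at 1.5-fold. Of the 15 pairs 2 passed with cortical markers removed and 0 to 2 with 1 array left out (1 without WT replicate 4, 2 without WT replicate 5). Genes near the median level limit what the arrays can show. The cause of these shifts was not tested.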
